A study of Mus musculus with 21 samples.

Results

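The genes described here are 10 members of the MHC class I presentation pathway and the immunoproteasome, namely H2-K1, H2-D1, B2m, Tap1, Tap2, Tapbp, Psmb8, Psmb9, Psmb10 and Nlrc5. They were taken by gene symbol from RNA-seq tables of 24421 symbols, and all 10 passed the filter on low counts, as did 12786 symbols in all. The cells were primary bone marrow B cell precursors of 53BP1-/- C57BL/6 mice, so every group lacked the DNA repair factor 53BP1. They were cultured with 10 ng/ml interleukin-7 and transduced with the retroviral vector MIGR1. The MIGR1 vector was empty (EV), or it carried BCR-ABL1p210, a human leukemia-inducing fusion kinase, or it carried the transcription factor C-MYC. RNA was extracted 7 to 9 days after transduction from cells depleted of dead cells, and 2 libraries were made for each of the 3 conditions. The methods give duplicate experiments, but the animals behind each library and their ages are not given in the sources used here, so p-values measure the spread between these libraries.

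MHC class I molecules show peptides from inside a cell to CD8 T cells. The immunoproteasome, in which the subunits Psmb8, Psmb9 and Psmb10 take the places of the constitutive Psmb5, Psmb6 and Psmb7, cuts proteins into peptides that suit class I molecules. The transporter made of Tap1 and Tap2 carries these peptides into the endoplasmic reticulum, where tapasin (Tapbp) holds empty class I molecules beside it. Class I molecules consist of a heavy chain, such as H2-K1 or H2-D1, and the light chain B2m. Nlrc5 is a transcriptional activator of class I genes, and interferon raises the whole set in most cell types.

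Class I promoters are known for a compact block of elements, with a kappaB site, an interferon response element and an SXY module that ends in a CCAAT box read on the reverse strand. Windows of 250 bases before to 50 bases after the start were found in RefSeq (build GRCm38.p6) for 8 of the 10 genes, with Tap2 and Nlrc5 not among them. The stretches of H2-K1, H2-D1 and B2m are shown because they hold this block in the same order or nearly so. Each is read 5′ to 3′ on its gene's strand. H2-K1 is on the minus strand at chr17:34000359-34000458, H2-D1 on the plus strand at chr17:35262923-35263022, and B2m on the plus strand at chr2:122147550-122147638. Capitals mark matches to GGGNNNNNCC (kappaB, with overlapping matches on both strands merged), AANNGAAA (interferon regulatory factor core, written TTTCACTT where it lies on the other strand), TGACG and ATTGG, the reverse of CCAAT.
H2-K1: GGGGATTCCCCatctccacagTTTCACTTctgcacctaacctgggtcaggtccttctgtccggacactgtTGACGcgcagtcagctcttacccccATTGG
H2-D1: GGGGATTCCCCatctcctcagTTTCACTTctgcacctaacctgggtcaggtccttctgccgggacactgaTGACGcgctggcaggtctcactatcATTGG
B2m: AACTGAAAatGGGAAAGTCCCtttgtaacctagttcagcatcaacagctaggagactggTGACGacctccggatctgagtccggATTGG
The H2-K1 and H2-D1 stretches were identical at 89 of 100 bases, and every marked match fell at the same place in both. TGACG and ATTGG began 25 bases apart in all 3 stretches. That spacing was found in 31 of 32851 promoter windows (0.0944%). They include the windows of H2-K1, H2-D1 and B2m themselves and that of H2-M3, another class I heavy chain. Most of the other windows belong to genes outside this pathway, such as Calu, Nasp and Per1. Single motifs were common, since GGGNNNNNCC on either strand was in 50.8% of all windows, AANNGAAA in 23.9%, TGACG in 20.8% and CCAAT in 37.4%. The motif letters and the spacing were chosen with the sequences in view, and a match describes letters only.

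Tap1 and Psmb9 start back to back on chromosome 17, with 225 bases between their RefSeq starts. The stretch between them, chr17:34187331-34187555, is shown on the plus strand because both genes, whose levels went together across the libraries, share it. Capitals mark the same motifs.
Tap1 and Psmb9: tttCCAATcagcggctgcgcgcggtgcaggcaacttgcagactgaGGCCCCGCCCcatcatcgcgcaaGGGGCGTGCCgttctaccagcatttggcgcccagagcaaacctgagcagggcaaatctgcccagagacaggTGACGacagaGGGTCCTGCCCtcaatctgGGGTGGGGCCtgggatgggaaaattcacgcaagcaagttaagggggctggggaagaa
Psmb10 and Psmb8 differed from the other members in their pattern across conditions, and their stretches are shown for comparison, with the E box CACGTG in capitals in Psmb10 (chr8:105938483-105938528, minus strand) and the STAT motif TTCNNNGAA in capitals in Psmb8 (chr17:34198078-34198126, plus strand).
Psmb10: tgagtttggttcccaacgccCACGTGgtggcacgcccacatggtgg
Psmb8: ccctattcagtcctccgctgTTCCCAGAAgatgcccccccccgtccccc
Neither window held AANNGAAA, GGGNNNNNCC, TGACG or CCAAT on either strand. CACGTG was in 7.15% of all windows and TTCNNNGAA in 8.30%. Whether any of these motifs bears on the levels was not tested. The Tapbp window held CCAAT on the reverse strand at 2 places and none of the other motifs. For Psmb8, Tapbp, H2-D1 and Psmb9 the RefSeq start used lies inside the longer GENCODE span given below. The bases before the GENCODE starts of these genes were not searched, so a missing motif refers to the RefSeq window only.

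The reads counted on genes were between 20687092 and 24095955 per library, which is ample for these genes, whose lowest count was 1736. Levels are given in CPM, the counts of a gene relative to the total of its library, with totals scaled by the TMM method. Myc, the check of the labels, was at 181 and 137 CPM with EV, 343 and 348 with BCR-ABL1 and 1743 and 1233 with C-MYC. The B cell marker Cd79a (603 to 1653 CPM) was abundant in all 6 libraries. The summed level of 15 B cell precursor markers was 9395 and 10460 CPM with EV, 8682 and 9539 with BCR-ABL1 and 6366 and 7875 with C-MYC. Of the 15, 12 were called lower in C-MYC than in EV, where 24.5% of all genes tested were. In BCR-ABL1, 4 were called lower than in EV (Il7r, Rag1, Cd93 and Cd79b) and 1 higher (Dntt), where 12.0% and 5.08% of all genes were. Il7r was at 28.4% of EV there. The summed markers of myeloid, T and NK, dendritic and stromal cells were higher in both EV libraries than in any oncogene library, with values given beside the results they touch. EV replicate 1 stood above EV replicate 2 for all 10 genes, by 1.13 times for Tap2 to 2.06 times for Tap1, whereas the median gene had a ratio of 0.987.

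Heavy and light chains made up most of the expression of the set. In CPM per kilobase of annotated exon, the EV mean was 2634 ± 638 for B2m, 736 ± 180 for H2-K1 and 243 ± 70.9 for H2-D1 (SD, n = 2), together 87.8% of the summed level of the 10 genes. The other 7 genes were between 109 ± 15.9 (Psmb8) and 39.3 ± 9.66 (Nlrc5), in the order Psmb8, Tap1, Psmb10, Tapbp, Tap2, Psmb9 and Nlrc5, and each of these differed from its neighbour in that order by no more than the larger of their SDs. On the deposited FPKM scale the order of the most abundant 3 was different in EV, with means of 1471 for H2-D1, 1370 for H2-K1 and 1035 for B2m, and the order among them is therefore uncertain. In C-MYC, Psmb8 (97.8 ± 1.64 CPM per kilobase) and H2-D1 (92.1 ± 11.5) were within 1 SD of each other, whereas H2-D1 was above Psmb8 in EV. On the FPKM scale H2-D1 (mean 568.8) stayed well above Psmb8 (202.5) in C-MYC, so their closeness depends on the measure.

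Both heavy chain genes fell in C-MYC relative to EV, and H2-K1 fell in BCR-ABL1 as well. H2-K1 (chr17:33996017-34000347) was at 2535 and 1788 CPM with EV, 1122 and 1025 with BCR-ABL1 and 726 and 794 with C-MYC. H2-D1 (chr17:35262730-35267499) was at 756 and 498 CPM with EV, 427 and 329 with BCR-ABL1 and 259 and 217 with C-MYC. For both genes the libraries of the 3 conditions did not overlap, with EV highest and C-MYC lowest. In edgeR (quasi-likelihood test, Benjamini-Hochberg adjusted over all genes), H2-K1 fell by 1.01 on the log2 scale in BCR-ABL1 (SE 0.16, adjusted p = 0.0058), to 49.7% of EV. It fell by 1.51 in C-MYC (SE 0.16, adjusted p = 0.00052), to 35.1%. The H2-D1 difference was -0.73 in BCR-ABL1 (SE 0.21, adjusted p = 0.052), which missed the threshold of 0.05 and passed it with the replicate number as a block (adjusted p = 0.0018). It was -0.40 without EV replicate 1 (adjusted p = 0.13) and passed the threshold without EV replicate 2 (adjusted p = 0.0049). In C-MYC, H2-D1 fell by 1.40 (SE 0.21, adjusted p = 0.0019). Of the 50-base windows of their exons, 9.63% of those of H2-K1 and 12.8% of those of H2-D1 also occur in another gene of the tables, further class I genes included, so reads may have been split among them.

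B2m (chr2:122147686-122153083), which pairs with every class I heavy chain, followed the same order. It was at 2654 and 1877 CPM with EV, 1745 and 1397 with BCR-ABL1 and 1214 and 892 with C-MYC. No library of 1 condition overlapped those of another, although the gap between the lower EV library and the higher BCR-ABL1 library was small. B2m fell by 1.11 in C-MYC (SE 0.21, adjusted p = 0.0044), and its difference in BCR-ABL1 was -0.53 (SE 0.21, adjusted p = 0.13, or 0.0030 with the replicate block). The latter was -0.26 without EV replicate 1 (adjusted p = 0.38) and -0.76 without EV replicate 2 (adjusted p = 0.028). None of its 50-base exon windows occurs in another gene.

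**Figure D1:**
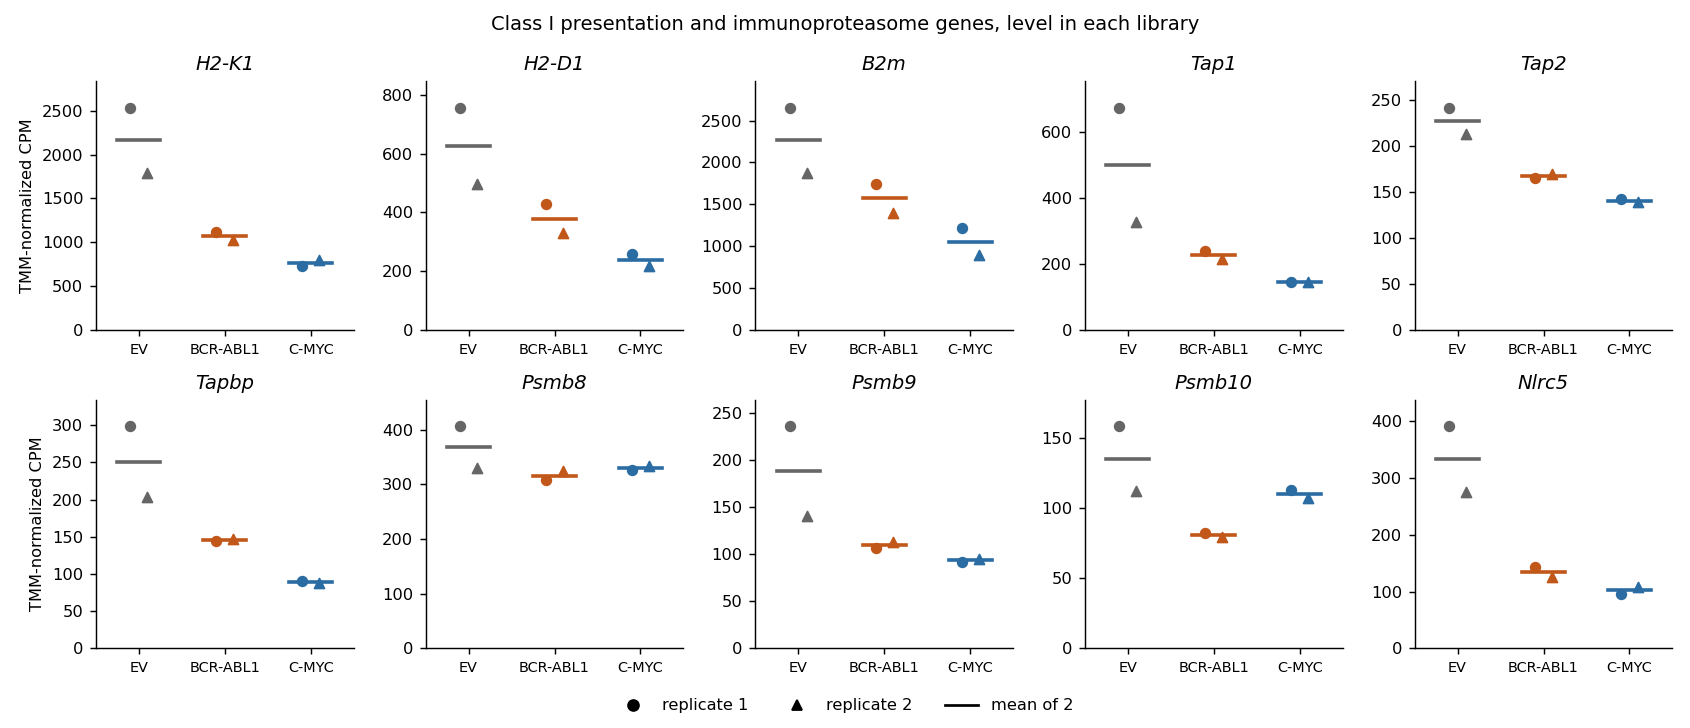
Level of each of the 10 genes in TMM-normalized CPM (vertical axes, each from 0) in the EV, BCR-ABL1 and C-MYC libraries, with a circle for replicate 1, a triangle for replicate 2 and a line for their mean. For 8 genes EV is highest and C-MYC lowest, while the levels of Psmb8 are close together and Psmb10 is lowest in BCR-ABL1.

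The transporter and tapasin genes fell with both oncogenes. Tap1 (chr17:34187553-34197225) was at 675 and 328 CPM with EV, 241 and 216 with BCR-ABL1 and 145 and 147 with C-MYC, so that the EV libraries differed widely while both of them stood above all others. Tap1 fell by 1.14 in BCR-ABL1 (SE 0.28, adjusted p = 0.031) and by 1.78 in C-MYC (SE 0.29, adjusted p = 0.0024). Without EV replicate 1 these differences were -0.52 and -1.17, and both were still called. Tap2 (chr17:34203527-34216321), its partner in the transporter, had smaller differences. It was at 242 and 214 CPM with EV, 165 and 170 with BCR-ABL1 and 142 and 139 with C-MYC, with little spread between replicates and no overlap. Tap2 fell by 0.44 in BCR-ABL1 (SE 0.10, adjusted p = 0.026) and by 0.70 in C-MYC (SE 0.11, adjusted p = 0.0018). Tapbp (chr17:33915899-33929292) was at 299 and 204 CPM with EV, 144 and 147 with BCR-ABL1 and 90.2 and 87.5 with C-MYC. It fell by 0.78 in BCR-ABL1 (SE 0.17, adjusted p = 0.019) and by 1.50 in C-MYC (SE 0.17, adjusted p = 0.00065). Without EV replicate 1 the BCR-ABL1 difference of Tapbp was -0.48, again called. The BCR-ABL1 calls of all 3 genes were lost without either BCR-ABL1 library. Those of Tap1 and Tap2 were also lost without either C-MYC library (adjusted p = 0.064 and 0.050) and with only the 4 libraries compared (adjusted p = 0.067 and 0.052), and that of Tap2 without EV replicate 1 (-0.35, adjusted p = 0.051).

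Of the 3 immunoproteasome subunits, Psmb9 was called lower with both oncogenes, Psmb10 with BCR-ABL1 and Psmb8 with neither. Psmb9 (chr17:34181987-34187764) was at 236 and 140 CPM with EV, 107 and 113 with BCR-ABL1 and 92.3 and 95.1 with C-MYC. It went with Tap1, and it fell by 0.77 in BCR-ABL1 (SE 0.21, adjusted p = 0.046) and by 1.01 in C-MYC (SE 0.22, adjusted p = 0.0077). The BCR-ABL1 call was lost without any 1 library other than EV replicate 2, at -0.35 without EV replicate 1 (adjusted p = 0.057), and the C-MYC call without C-MYC replicate 1 (-0.99, adjusted p = 0.058). Without EV replicate 1 the C-MYC difference was -0.58 and was still called. The annotated ends of Psmb9 and Tap1 overlap on opposite strands, and whether counting used strand is not given in the sources used here, so a few of their reads cannot be told apart. Psmb10 (chr8:105935735-105938444) was at 159 and 112 CPM with EV, 82.3 and 79.9 with BCR-ABL1 and 113 and 107 with C-MYC. It was lowest in BCR-ABL1, where it fell by 0.74 (SE 0.16, adjusted p = 0.020), or by 0.47 without EV replicate 1, and the call was lost without either BCR-ABL1 library. The C-MYC libraries overlapped EV (-0.30, SE 0.16, adjusted p = 0.17), and 1 EV library decided this value, which was -0.03 without EV replicate 1 (adjusted p = 0.86) and -0.53 without EV replicate 2 (adjusted p = 0.0051). Psmb8 (chr17:34197721-34201454) was at 407 and 330 CPM with EV, 308 and 325 with BCR-ABL1 and 327 and 334 with C-MYC. Its differences from EV were -0.22 (SE 0.12, adjusted p = 0.25) in BCR-ABL1 and -0.16 (SE 0.12, adjusted p = 0.32) in C-MYC, and neither was called. Without EV replicate 1 they were -0.06 and 0.00, and without EV replicate 2 they were -0.36 (adjusted p = 0.047) and -0.30 (adjusted p = 0.0501).

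Nlrc5 (chr8:94434356-94527272), the activator, fell in both oncogene conditions, and both calls held when any 1 library was left out. It was at 391 and 276 CPM with EV, 143 and 126 with BCR-ABL1 and 96.1 and 109 with C-MYC. Both oncogene conditions were far below EV, and the C-MYC libraries were below those of BCR-ABL1. Nlrc5 fell by 1.31 in BCR-ABL1 (SE 0.17, adjusted p = 0.0028), to 40.3% of EV, and by 1.70 in C-MYC (SE 0.18, adjusted p = 0.00048), to 30.7%.

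In BCR-ABL1 against EV, 7 of the 10 genes were called lower and none higher, where 12.0% of all genes tested were called lower and 5.08% higher. With the replicate number as a block, 9 were called lower, all except Psmb8. Both BCR-ABL1 libraries were below both EV libraries for all 10 genes, against 29.7% of all genes tested, and the median log2 fold change was -0.76, beside 0.00 for all genes. The count of calls rested on few libraries. It was 2 without BCR-ABL1 replicate 1 (H2-K1 and Nlrc5), 1 without BCR-ABL1 replicate 2 (Nlrc5), 4 without either C-MYC library, 5 without EV replicate 1 and 10 without EV replicate 2, and a lone library is then assumed to vary like the other groups. In C-MYC against EV, 8 of the 10 genes were called lower and none higher, where 24.5% of all genes were called lower and 18.6% higher. Both C-MYC libraries were below both EV libraries for the same 8 genes, all except Psmb8 and Psmb10, against 39.1% of all genes. The median was -1.25, beside -0.08 for all genes, and 7 to 9 genes were called when any 1 library was left out. The 2 comparisons share the EV libraries.

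**Figure D2:**
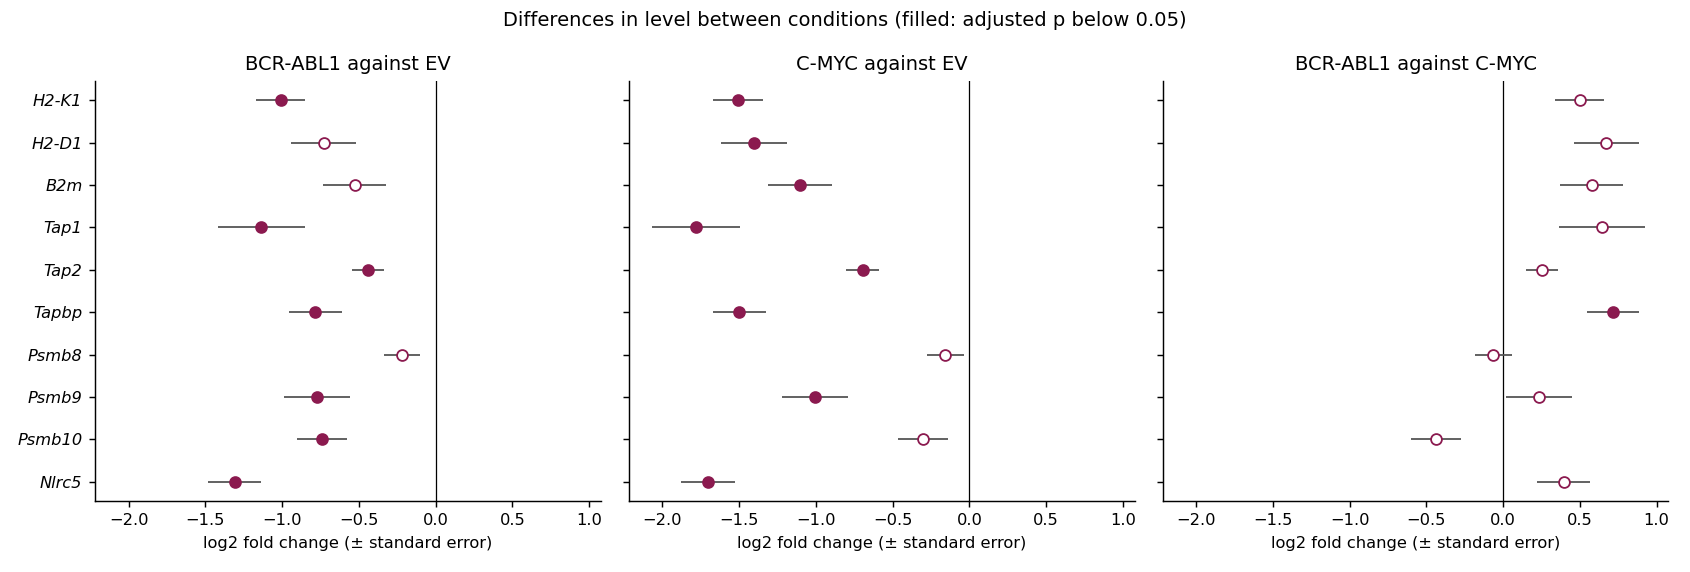
Log2 fold change of each gene (horizontal axis) with its standard error in the 3 comparisons, from edgeR with all 6 libraries in 1 model, with filled points for an adjusted p below 0.05. Relative to EV, 7 genes are called lower with BCR-ABL1 and 8 with C-MYC, and Tapbp alone is called between BCR-ABL1 and C-MYC.

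Most markers of myeloid, T and NK and stromal cells that were tested were called lower in both comparisons with EV, as were most of the 10 genes. Among all genes tested, 12.0% were called lower with BCR-ABL1 and 24.5% with C-MYC. The summed level of the myeloid markers was 1301 and 1388 CPM with EV, 163 and 185 with BCR-ABL1 and 253 and 421 with C-MYC, with 14 of 14 tested called lower by BCR-ABL1 and 13 by C-MYC. The most abundant was Lyz2, at 593 ± 137 CPM with EV, 110 ± 17.9 with BCR-ABL1 and 179 ± 66.8 with C-MYC (SD, n = 2). T and NK cell markers, led by Thy1, summed to 202 and 288 CPM with EV, 43.1 and 48.9 with BCR-ABL1 and 54.9 and 86.0 with C-MYC, with 14 and 13 of 14 called lower. Thy1 alone was at 67.6 and 94.8 CPM with EV, 30.9 and 38.4 with BCR-ABL1 and 47.2 and 81.1 with C-MYC. It thus made up most of the sum in every oncogene library but not in EV. Stromal markers, led by Col1a1, summed to 122 and 184 CPM in EV and to between 2.67 and 8.48 CPM in the oncogene libraries, with 5 of 7 called lower by BCR-ABL1 and 6 by C-MYC. The stromal marker Kitl, near 1 CPM or less, had the opposite sign in C-MYC (1.45, adjusted p = 0.10, or 0.025 with the replicate block). Dendritic cell markers, led by Bst2, summed to 42.2 and 60.7 CPM in EV and to between 17.7 and 36.2 CPM elsewhere, with 2 of 4 called lower in each (4 in BCR-ABL1 with the replicate block), while Bst2 itself was at 31.3 CPM with EV and 31.2 with C-MYC. Erythroid markers, led by Alas2, summed to less than 2 CPM in every library, and Alas2 was not called (0.40 with BCR-ABL1, -0.09 with C-MYC). Hba-a1, Hba-a2, Hbb-bs, Hbb-bt and the stromal marker Lum were listed at 0 counts in all, whereas the FPKM table lists Hba-a2 at 0.302 to 2.27 and Hbb-bs and Hbb-bt at no more than 0.395. Cells of these types are known to express class I genes too, and their part in the differences from EV was not tested. In bulk samples fewer cells of a type and less RNA per cell cannot be told apart.

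**Figure D3:**
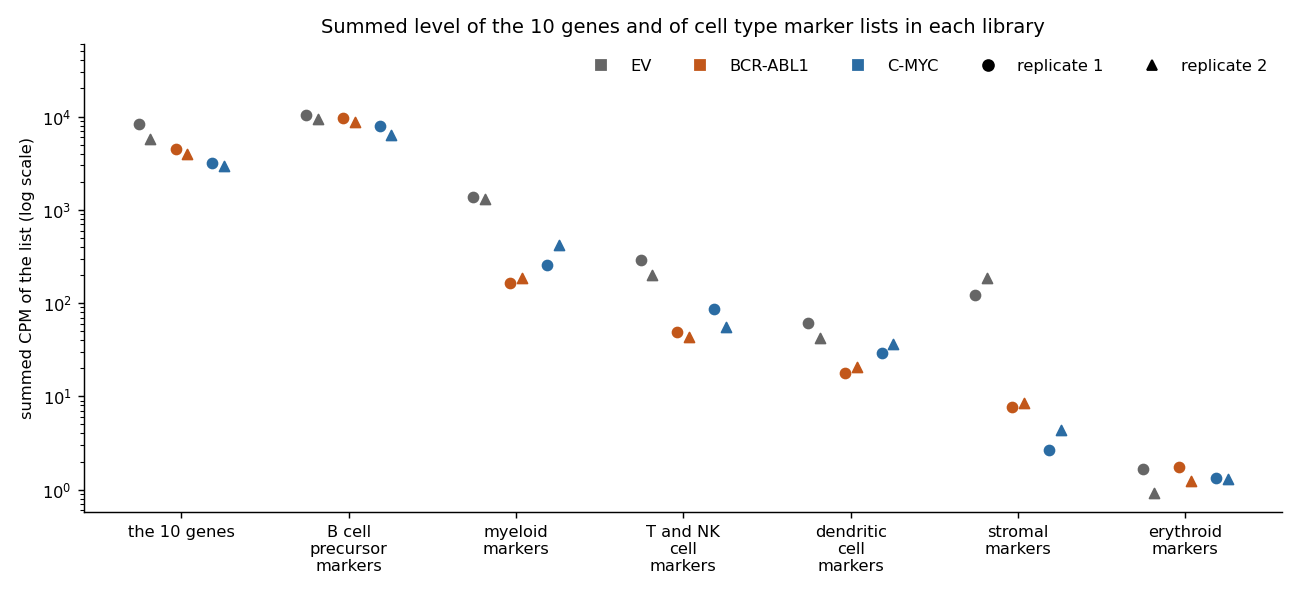
Summed CPM of the 10 genes and of each marker list (vertical axis, log scale) in each library, with colour for the condition, circles for replicate 1 and triangles for replicate 2. The 10 genes sum to 5767 and 8353 CPM in EV, 3929 and 4484 with BCR-ABL1 and 2920 and 3203 with C-MYC, whereas the myeloid list is higher in C-MYC than in BCR-ABL1.

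The comparison of BCR-ABL1 with C-MYC does not use the EV level, although the EV libraries enter the estimate of the spread. BCR-ABL1 was above C-MYC in both libraries for 8 of the 10 genes, where this held for 35.4% of all genes tested, and below it for Psmb8 and Psmb10. Tapbp was the only gene called (0.71, SE 0.17, adjusted p = 0.022), at 1.64 times the C-MYC level, where 11.9% of all genes were called higher in BCR-ABL1 and 11.5% lower. The differences of H2-K1 (0.50, SE 0.16, adjusted p = 0.058), H2-D1 (0.67, SE 0.21, adjusted p = 0.056) and B2m (0.58, SE 0.21, adjusted p = 0.081) missed the threshold. They passed it with the replicate block, with adjusted p-values of 0.025, 0.0022 and 0.0014. Psmb10 had the opposite sign (-0.44, SE 0.16, adjusted p = 0.090, or 0.033 with the block), so that the block called 4 genes higher and 1 lower. Tap1 (0.65), Nlrc5 (0.39), Tap2 (0.25), Psmb9 (0.24) and Psmb8 (-0.06) were not called in either fit. A model of these 4 libraries alone called 7 genes, as did the model without either EV library, and with any BCR-ABL1 or C-MYC library left out edgeR called none of the 10, of which 1 to 4 had an unadjusted p below 0.05, Tapbp each time. DESeq2 on all 6 libraries called 4 (H2-K1, H2-D1, B2m and Tapbp). Myeloid markers went the other way here, with 5 of 14 called lower in BCR-ABL1 than in C-MYC and none higher. Of the stromal markers, 3 of 7 were called higher in BCR-ABL1 and 1 lower (median 1.36). T and NK cell markers had 1 of 14 called higher and none lower (median 0.56). Among 4 dendritic cell markers none was called (median -0.44). B cell precursor markers went the same way as the class I genes, with 11 of 15 called higher in BCR-ABL1. The part of any of these cell types was not tested.

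Relative to its constitutive counterpart, each immunoproteasome subunit was lower in every oncogene library than in either EV library. The ratio of Psmb8 to Psmb5 counts was 6.72 and 5.70 with EV, 4.82 and 4.23 with BCR-ABL1 and 4.39 and 3.84 with C-MYC. The ratio of Psmb9 to Psmb6 was 1.745 and 1.096 with EV, 0.665 and 0.741 with BCR-ABL1 and 0.541 and 0.530 with C-MYC. The ratio of Psmb10 to Psmb7 was 0.889 and 0.665 with EV, 0.430 and 0.382 with BCR-ABL1 and 0.460 and 0.423 with C-MYC. Averaged on the log2 scale, the ratios were thus 72.9% (Psmb8), 50.8% (Psmb9) and 52.7% (Psmb10) of EV with BCR-ABL1, and 66.3%, 38.7% and 57.4% with C-MYC. A ratio of counts of different genes is not a ratio of molecules. The ratios are given as values and no test was run on them. The constitutive subunits, the denominators, were all called higher in C-MYC than in EV, where 18.6% of all genes tested were. Psmb5 rose by 0.45 (SE 0.14, adjusted p = 0.035), Psmb6 by 0.41 (SE 0.10, adjusted p = 0.013) and Psmb7 by 0.52 (SE 0.10, adjusted p = 0.0049). In BCR-ABL1 none of the 3 was called by edgeR or by DESeq2, with differences of 0.25, 0.25 and 0.21, and Psmb6 alone had an unadjusted p below 0.05 in each.

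**Figure D4:**
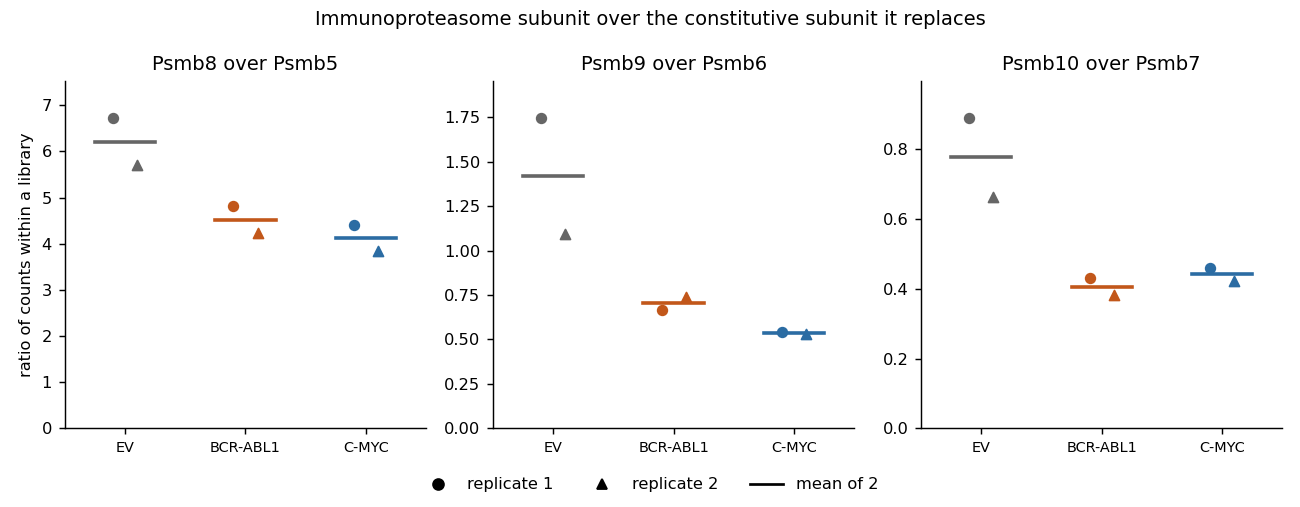
Ratio of the counts of an immunoproteasome subunit to those of the constitutive subunit it replaces (vertical axes, each from 0) in each library, with circles for replicate 1, triangles for replicate 2 and lines for means. Both EV libraries are above all 4 oncogene libraries in each panel.

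The rest of the class I pathway was followed in 6 lists of 73 genes, of which 70 were in the tables and 55 passed the filter. In BCR-ABL1 against EV 16 were called lower and 1 higher, where 12.0% and 5.08% of all genes tested were. In C-MYC against EV 32 were called lower and 9 higher, where 24.5% and 18.6% of all genes were, so that the share called higher was near the background. BCR-ABL1 was called higher than C-MYC for 17 genes and lower for 1 (5 with the replicate block), where 11.9% and 11.5% of all genes were. The BCR-ABL1 calls against EV were 20 lower and 6 higher with the replicate block. They fell from 17 in all to 7 and 5 without BCR-ABL1 replicates 1 and 2. The calls in C-MYC against EV fell from 41 to 25 without C-MYC replicate 2, and those between BCR-ABL1 and C-MYC from 18 to between 5 and 9 without any 1 of their 4 libraries.

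Most of the other class I heavy chain and class I-like genes tested fell with H2-K1 and H2-D1. Of 14 tested, 10 were called lower with BCR-ABL1 and 12 with C-MYC, with medians of -1.20 and -1.97, and 6 were called higher in BCR-ABL1 than in C-MYC. The shares of all genes tested were 12.0%, 24.5% and 11.9% for these 3 counts. H2-T23, which encodes the nonclassical molecule Qa-1, was at 222 and 130 CPM with EV, 59.9 and 58.6 with BCR-ABL1 and 23.8 and 31.3 with C-MYC, and it fell by 1.57 (adjusted p = 0.0057) and 2.67 (adjusted p = 0.00041). H2-Q4 was at 792 and 437 CPM with EV, 276 and 216 with BCR-ABL1 and 124 and 127 with C-MYC, with falls of 1.32 (adjusted p = 0.012) and 2.29 (adjusted p = 0.00064). Both were called higher in BCR-ABL1 than in C-MYC, H2-T23 by 1.104 (adjusted p = 0.018) and H2-Q4 by 0.97 (adjusted p = 0.030). H2-Q5 (48.8 ± 14.9 CPM in EV) fell by 2.41 in BCR-ABL1 and by 2.67 in C-MYC, and H2-T10 by 0.81 and 1.72. H2-M3, which presents formylated peptides and shares the promoter spacing described above, fell by 1.64 in C-MYC (adjusted p = 0.0016) and missed the threshold in BCR-ABL1 (-0.68, adjusted p = 0.088). The class I-like genes Fcgrt, the neonatal Fc receptor, and Cd1d1, which presents lipids, were also called lower in both, Fcgrt by 4.07 and 2.62 and Cd1d1 by 0.66 and 1.36. H2-M2 had 37 and 34 counts in EV and at most 1 in any other library, too few for a fold change. The H2 genes are close paralogs, and the split of reads among them is uncertain.

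Most genes of interferon signalling were lower in C-MYC than in both other conditions. All 14 tested were called lower in C-MYC than in EV, where 24.5% of all genes tested were. Against EV, 5 were called lower in BCR-ABL1 (8 lower and 2 higher with the replicate block), where 12.0% of all genes were. Higher in BCR-ABL1 than in C-MYC were 9, where 11.9% of all genes were. The median differences were -0.42 in BCR-ABL1 and -1.16 in C-MYC against EV, and 1.01 in BCR-ABL1 against C-MYC. Irf1, which activates class I genes, was at 262 and 263 CPM with EV, 90.5 and 82.4 with BCR-ABL1 and 58.6 and 62.7 with C-MYC. Its EV libraries were alike, unlike those of the 10 genes, and it fell by 1.60 (SE 0.11, adjusted p = 0.00037) and 2.11 (SE 0.11, adjusted p = 0.00016). Irf9, a part of the factor downstream of type I interferon, fell by 1.34 and 2.55, and Irf2 by 0.79 and 1.06. Ifngr1, a chain of the interferon gamma receptor, was at 151 and 141 CPM in EV and 144 and 152 with BCR-ABL1, and at 60.2 and 57.1 with C-MYC. Its difference from EV was 0.02 in BCR-ABL1 (SE 0.10, adjusted p = 0.93) and -1.31 in C-MYC (SE 0.11, adjusted p = 0.00026), and the difference between BCR-ABL1 and C-MYC was itself called (1.33, adjusted p = 0.00055). Ifngr2 (1.67), Ifnar1 (1.11) and the kinase Jak1 (0.91) were likewise called higher in BCR-ABL1 than in C-MYC.

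Of the factors known to bind class I promoters, none of 10 tested was called in BCR-ABL1 by edgeR or by DESeq2 (1, Nfya, had an unadjusted p below 0.05 in each) and 4 were called lower in C-MYC, namely Rfxank (-0.95, adjusted p = 0.0064), Rfx5 (-0.62, adjusted p = 0.012), Nfya (-0.56, adjusted p = 0.013) and Nfkb1 (-0.38, adjusted p = 0.019). Of all genes tested, 24.5% were called lower in C-MYC, and the replicate block called 5 of these factors lower and 1 higher. Rfxap, the remaining subunit of the RFX complex, was not called (0.10, adjusted p = 0.63). Against EV, these factors had a median of -0.12 with BCR-ABL1 and of -0.36 with C-MYC. In BCR-ABL1 the adjusted p was 0.12 for Nfya, 0.19 for Rfx5, 0.38 for Rfxank and 0.85 for Nfkb1, and with the replicate block Nfya alone passed (adjusted p = 0.0498). The 10 genes of peptide trimming and loading were mixed. In BCR-ABL1 1 was called lower and 1 higher (median 0.14), where 12.0% and 5.08% of all genes tested were. In C-MYC 2 were called lower and 5 higher (median 0.25), where 24.5% and 18.6% of all genes were. The counts called lower were near these shares. Tapbpl, a tapasin-related editor of class I peptides, was at 69.5 and 43.1 CPM with EV, 25.5 ± 0.68 (SD, n = 2) with BCR-ABL1, and 21.9 and 20.5 with C-MYC, and it fell by 1.14 (adjusted p = 0.012) and 1.41 (adjusted p = 0.0020). The chaperones Canx (0.66, adjusted p = 0.0048) and Pdia3 (0.30, adjusted p = 0.047) and the aminopeptidase Lap3 (1.22, adjusted p = 0.00070) rose in C-MYC. Tpp2, a peptidase, rose in both, by 0.44 in BCR-ABL1 and 0.35 in C-MYC. Erap1, which trims peptides in the endoplasmic reticulum, and Calr were not called, with differences between -0.15 and 0.22. Among the 4 genes of proteasome activation and assembly (medians 0.06 and 0.105), Psme1 and Psme2 were not called in either (-0.24 to -0.05), nor was the assembly factor Pomp, and Psme3, which forms a nuclear activator, rose by 0.77 in C-MYC (adjusted p = 0.0028). With the replicate block Canx, Lap3 and Psme3 were also called higher in BCR-ABL1 than in EV, with adjusted p-values of 0.0056, 0.021 and 0.028.

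**Figure D5:**
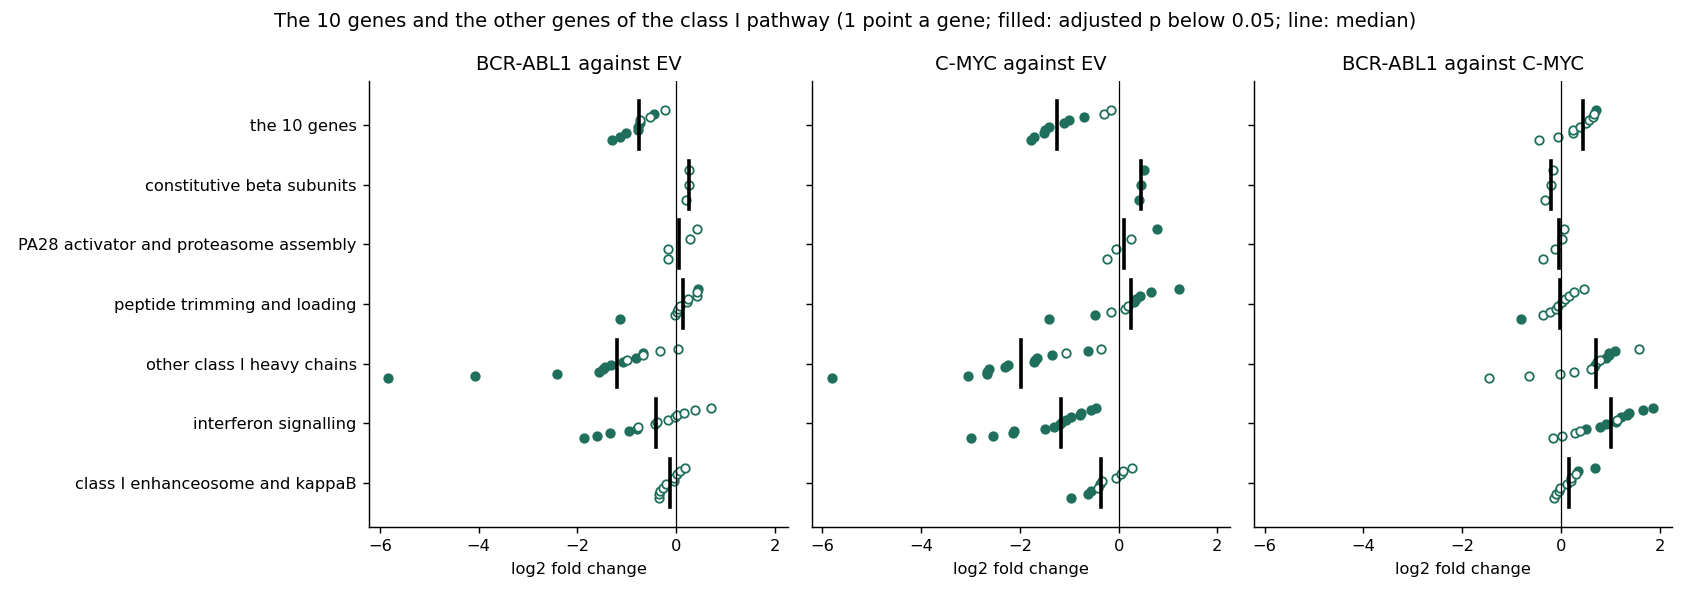
Log2 fold change (horizontal axis) of every tested gene of the 10 and of the 6 pathway lists in the 3 comparisons, 1 point a gene, filled for an adjusted p below 0.05, with the median of each list as a line. In C-MYC against EV all 14 other heavy chain and class I-like genes and all 14 interferon signalling genes lie left of 0. The 3 constitutive beta subunits lie right of it.

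Across the 6 libraries, 8 of the 10 genes had a Pearson correlation of 0.925 or more between their log2 CPM and the mean of the other 9 genes. It was lower for Psmb8 (0.742) and Psmb10 (0.580). The closest pair was H2-K1 and Nlrc5 (0.994). These correlations are over 6 libraries of 3 conditions and follow the condition means. Of 12776 genes outside the set, 709 had a correlation above 0.9 with the mean of the 10. The closest were Grina (0.997), Tapbpl (0.997), Irgm1 (0.996), Ifitm6 (0.995) and Plet1 (0.993). The closest to Nlrc5 were Mndal, A530032D15Rik, Cacnb3, Sphk1 and Tcp11l2, from 0.995 to 0.996. Irgm1, an interferon-induced GTPase, was the most abundant of those closest to the set, at 168 CPM with EV, 55.7 with BCR-ABL1 and 34.4 with C-MYC. Plet1, Ifitm6, A530032D15Rik, Cacnb3 and Sphk1 were below 10 CPM in every condition.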

How the data were processed

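Gene expression was analysed in the 6 RNA-seq libraries of the series, 2 each for EV, BCR-ABL1 and C-MYC, grouped by the labels. The ChIP-seq samples were not used here. The authors aligned poly(A) reads to GRCm38/mm10 with STAR 2.5.0, and they deposited whole-number counts per gene symbol without normalization. The deposited FPKM values were calculated by the authors with StringTie 1.3.0. The counting program and its strand setting are not given in the sources used here. The tables hold 0 columns of other samples.

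Counts were tested with edgeR 4.0.16 (R 4.3.3) by its quasi-likelihood test, Benjamini-Hochberg adjusted across the 12786 genes that passed filterByExpr, with TMM scaling, all 6 libraries in 1 model and no covariate. Genes were called at an adjusted p below 0.05. Standard errors (SE) were obtained as the size of the log2 difference over the square root of F. The test was checked on simulated counts. The common biological coefficient of variation was 0.151, so replicate spread limits precision more than depth does. Replicates differed by more than sampling noise. The labels number the replicates without saying what they share. Same-numbered libraries deviated together from their condition means (r = 0.273 for EV and BCR-ABL1, 0.236 for EV and C-MYC, 0.204 for BCR-ABL1 and C-MYC, over 12786 genes), so the fit with the replicate number as a block was also run. Alternatives were DESeq2 1.42.0 (its test, and its size factors in edgeR), no filter, limma 3.58.1 on log2 FPKM with a pseudocount of 1 or 0.1, a model of only the 4 libraries compared, and leaving out each library.

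The 10 genes and all lists were chosen with earlier results of these data known. The text names the 10 genes, 18 fixed genes of the pathway, up to 4 called genes of each list per comparison by smallest p, check genes, the most abundant marker of each other cell type, and the 5 genes most correlated with the set and with Nlrc5. The markers at 0 were named after their values were seen. Some genes of this rule are not reported here. Gene positions are 1-based from GENCODE on GRCm38, and promoter windows are from RefSeq.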

Additional observations from a re-analysis of the deposited data

How the results depend on the processing

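Of 390 values of the 10 genes under 13 alternatives (30 differences each), 315 kept their direction and their side of the threshold, 42 passed it newly, 32 no longer passed it and 1 changed sign. The sign changed for Psmb8 in C-MYC against EV, which was not called and lay between -0.30 and 0.00031 when 1 library was left out. In C-MYC against EV, 127 of 130 stayed. Calls among the 10 genes in BCR-ABL1 against EV were 7, and 4 with only the 4 libraries compared and 1 to 10 when 1 library was left out. In BCR-ABL1 against C-MYC they were 1, and 5 without a filter, 4 with DESeq2, 5 with the replicate block, 2 with limma on log2 FPKM at either pseudocount, 7 with only the 4 libraries compared and 0 to 7 when 1 library was left out. In BCR-ABL1 against EV, 6 were called with DESeq2 size factors, 6 with limma on log2 FPKM at either pseudocount, 8 with DESeq2 and 9 without a filter. With limma the calls of Tap1 and Psmb9 were lost and H2-D1 was called. Psmb9 was also lost with DESeq2 size factors. The cause of these changes was not tested. Calls in the pathway lists were 17, 41 and 18 in the 3 comparisons, with 26 for the first under the block. Leaving out 1 library gave ranges of 5 to 22, 25 to 39 and 5 to 23. Calls over all genes were 2180, 5515 and 2991, with 4516 for the last in only the 4 libraries compared and leave-one-out ranges of 680 to 2648, 3394 to 6030 and 611 to 4496. Under the replicate block, pathway genes called lower in BCR-ABL1 than in C-MYC went from 1 to 5 and dendritic cell markers called lower in BCR-ABL1 than in EV from 2 to 4. Under the block the calls in either direction changed by at most 3 in each single list, and no call of the 10 genes changed beyond those given. H2-K1, H2-D1 and B2m held 80.7% of the summed EV level on the FPKM scale. The lowest count of the 10 genes in any library was 1736, and a limit from depth was not tested.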

Other observations

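The tables disagree on part of the class I family. H2-Q6, H2-Q7, H2-Q8, H2-Q9 and H2-T9, further class I heavy chains, are listed at 0 counts in all 6 libraries, but the deposited FPKM table gives them values. H2-Q6 was at 424 and 247 FPKM with EV, 37.7 and 28.9 with BCR-ABL1 and 21.8 and 32.5 with C-MYC, so that both EV libraries were far above the others. H2-Q7 was at 125 and 76.2 FPKM with EV, 12.7 and 8.32 with BCR-ABL1 and 4.08 and 8.17 with C-MYC. H2-T9 was at 124 and 61.7 FPKM with EV, 41.4 and 40.6 with BCR-ABL1 and 35.3 and 28.4 with C-MYC. H2-Q8 and H2-Q9 lay between 28.3 and 50.2 FPKM in EV and between 1.96 and 5.20 FPKM in the other libraries. In all, 111 of 24421 genes (0.454%) had 0 counts in every library and a mean above 1 FPKM, among 7148 with 0 counts in every library. Others had few counts beside clear FPKM values. H2-T22 had 1 count over all 6 libraries and was at 61.7 and 33.0 FPKM with EV. H2-L had 4 to 13 counts per library and 20.3 and 18.4 FPKM with EV, and H2-Q1 had 0 to 4 counts per library and 11.6 and 7.89 FPKM with EV. Of these 8 heavy chains only H2-L passed the filter of the count test. They were chosen after their values were seen, and the FPKM values were not tested.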
